A study of Homo sapiens with 4 samples.

Results

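The ATF4 and unfolded protein response genes are 34 human genes that cells use when amino acids run short or when unfolded protein collects in the endoplasmic reticulum (ER). They were chosen by name, as regulators and targets of the transcription factor ATF4 and as chaperones and degradation factors of the ER. This choice was made with earlier results of these data known, which limits each comparison of the members with all genes. The genes were found on the arrays by the transcript accession of each probe. Of the 34 genes, 33 had a matched probe, and these 33 were well above background on all 4 arrays, among 12969 named genes measured on all 4 arrays and 17721 with a probe. *SLC3A2* had no matched probe and has no value here. Total RNA of Nalm-6 cells, a line of human pre-B leukemia cells, kept without oxidative stress was hybridized to Agilent one-color arrays, 1 array for each genotype. The genotypes were wild type, Arp5 KO with both alleles of the gene disrupted, Arp8 KO, and an array labelled Arp8 overexpression, all in the Nalm-6 line. Arp5 and Arp8 are actin-related proteins of the INO80 chromatin remodeling complex, and the comparisons ask which transcripts differ when the gene of either protein is disrupted. The Arp5 KO cells are 1 established line, and how Arp8 was overexpressed is not given in the sources used here.

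As background, several kinases that sense stress phosphorylate the initiation factor eIF2, which slows protein synthesis in general but favors translation of ATF4. ATF4 then switches on genes for amino acid synthesis and uptake, for redox balance and for its own feedback control. Unfolded protein in the ER also activates the factors ATF6 and XBP1, which raise the ER chaperones and the machinery that removes misfolded protein, and B-lineage cells need the XBP1 branch to become antibody-secreting plasma cells.

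Each value below is the processed signal of a probe in the arbitrary units of the scanner software, scaled so that every array has the 75th percentile of the wild-type array. The log2 difference of a gene is the median over its probes. With 1 array for each genotype no difference has a replicate check, no test was possible, and the small number of arrays sets the precision. The 3 comparisons with wild-type cells share the wild-type array, whereas Arp5 KO minus wild-type and Arp8 KO minus the array labelled overexpression have no array in common. The spread of repeated spots is the only error these arrays hold, and it covers no variation between cultures. For a single spot in Arp5 KO minus wild-type cells, the median SD of the log2 difference was 0.07 over 145 probes brighter than 500 units, 0.10 over 37 probes of 50 to 500 units, and 0.53 over 82 probes under 50 units. By the dimmest signal of its brightest probe, 30 of the 33 members were brighter than 500 units on every array. *DDIT3* and *SEL1L* fell in the class of 50 to 500 units, and *NUPR1* was at 12.1 to 18.8 units, where the spot error is large. Different probes of a gene were a second source of spread. In the 11 members with several probes, their log2 differences spanned a median of 0.11 in Arp5 KO minus wild-type cells and of 0.26 in Arp8 KO cells minus the array labelled overexpression, with a highest span of 0.71 for any comparison.

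The targeted genes were examined first. The *ACTR5* probe, for the gene of Arp5, gave 1909 units in wild-type cells, 66.3 on the Arp5 KO array, 1827 on the Arp8 KO array and 2055 on the array labelled overexpression, so the Arp5 KO array alone was low, with a log2 difference of -4.85. *ACTR8*, the gene of Arp8, has a pair of probes. The first gave 1092 units in wild-type cells, 1009 on the Arp5 KO array, 776 on the Arp8 KO array and 669 on the array labelled overexpression. The other gave 2149, 2268, 1634 and 1828 units in the same order. The median log2 difference to wild-type cells was -0.44 in Arp8 KO cells, with -0.47 on the array labelled overexpression. The *ACTR8* signal therefore goes against the overexpression label, and it does not set the Arp8 KO array apart from that one. Each direction drawn from either Arp8 array below rests on a label that the mRNA of the targeted gene does not bear out. Whether the *ACTR8* probes lie in the disrupted part of the gene was not tested. The cells carried the markers of their lineage on every array, and the marker signals that follow are given before scaling. All 10 B-lineage markers were measured, with summed signals of 359042 to 383501 units, and *IGLL1*, a part of the pre-B-cell receptor, gave the brightest signal. Single B-lineage markers differed more than the sum, such as *CD79A* with a log2 difference of -0.56 in Arp5 KO cells. Of the 4 T-cell markers with a probe only *CD3E* was well above background on all arrays, at 44.9 to 47.7 units, and of the 3 fibroblast markers with a probe none was. Of the 5 myeloid markers 4 were measured, with summed signals of 233 units in wild-type cells, 217 on the Arp5 KO array, 362 on the Arp8 KO array and 337 on the array labelled overexpression. *LYZ*, the lysozyme gene, accounted for most of that gap, at 55.4, 46.3, 143 and 140 units. The part of these dim myeloid signals in the differences below was not tested.

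Few members differed by as much as 2-fold. In Arp5 KO cells 1 of the 33 members was more than 2-fold above wild-type cells and 0 were below, whereas 1.91% of all 12969 genes were past 2-fold. In Arp8 KO cells the count was 0 against 2.86% of all genes. On the array labelled overexpression it was 1 against 3.01%, and between Arp8 KO cells and that array it was 0 against 1.5%. The member past 2-fold was *PPP1R15A* each time. These counts are near the share of all genes. The lower threshold of 1.5-fold separated the arrays more. In Arp5 KO cells 7 members, or 21.2%, were more than 1.5-fold above wild-type cells, namely *PPP1R15A*, *DDIT3*, *DNAJB9*, *NUPR1*, *ASNS*, *CEBPB* and *CHAC1*, and 0 were below, against 3.92% of all genes above and 3.31% below. *ASNS*, *CEBPB* and *CHAC1* lay at 0.61 and *NUPR1* at 0.64, close to the threshold of 0.58, and the count was 4 under several settings. Array median scaling and the authors' table left out *ASNS*, *CEBPB* and *CHAC1*, and quantile normalization and normexp background left out *ASNS*, *CEBPB* and *NUPR1*. *PPP1R15A*, *DDIT3* and *DNAJB9* were past it under each of these. Among genes with a mean signal over 500 units, a comparison chosen after seeing the data, 6 of 31 members were above 1.5-fold, against 2.04% of 9087 genes. In Arp8 KO cells 1 member, *ASNS*, was above 1.5-fold, against 5.1% of all genes, and 0 were below, against 5%. The array labelled Arp8 overexpression had 2 members above, *PPP1R15A* and *CRELD2*, against 5.11%, and 0 below, against 4.82%. In Arp8 KO cells relative to that array 1 member was above 1.5-fold, *DDIT4*, against 2.98%, and 3 were below, *PPP1R15A*, *CRELD2* and *HYOU1*, against 3.58%. Normexp background left out *CRELD2*, and the brightest probe of each gene added *HSPA5* to those below. The median over the 33 members was 0.17 in Arp5 KO minus wild-type cells, 0.02 in Arp8 KO minus wild-type cells and 0.16 on the array labelled overexpression minus wild-type cells, where the medians over all genes were 0.02, 0.03 and 0.03. In Arp8 KO cells minus the array labelled overexpression the median was -0.09, against 0.00 over all genes. The median of 0.17 in Arp5 KO cells depended on the probes, because it fell to 0.0184 when the brightest probe of each gene stood for the gene. The members were not alike, and they are described by their roles.

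**Figure D1:**
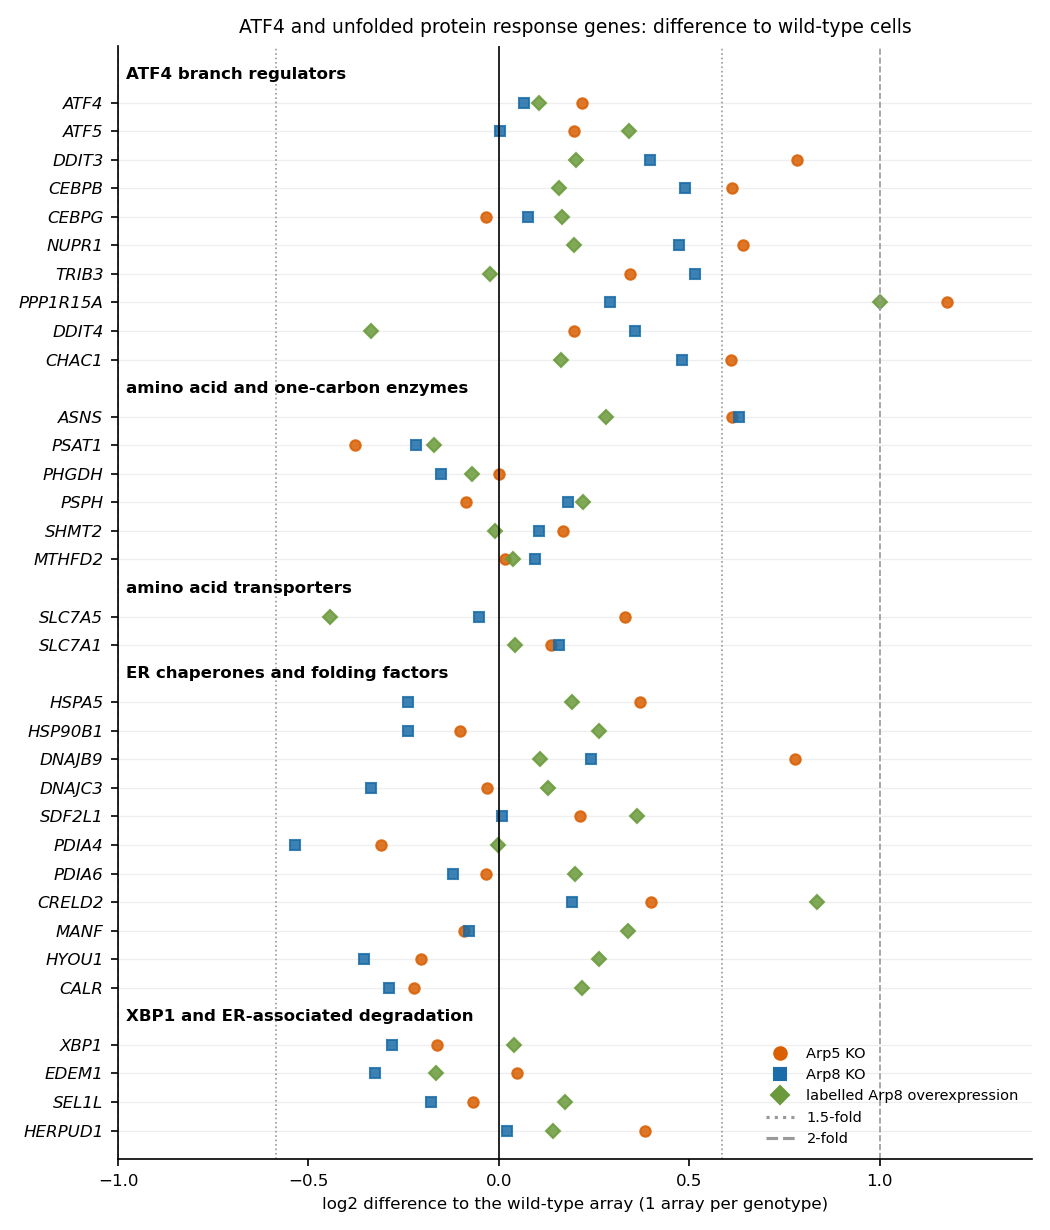
Log2 difference to the wild-type array (x axis) for the 33 measured genes, grouped by role, with circles for Arp5 KO cells, squares for Arp8 KO cells and diamonds for the array labelled overexpression; dotted and dashed lines mark 1.5-fold and 2-fold. Most regulators of the ATF4 branch lie to the right of 0 in both KO cell lines, whereas most ER chaperones lie left of 0 in Arp8 KO cells and right of 0 on the array labelled overexpression.

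The group named ATF4 branch regulators holds 10 genes, the factors of the branch and genes under its control such as *CHAC1* and *DDIT4*. They were mostly higher in both KO cell lines than in wild-type cells. Their median log2 difference was 0.48 in Arp5 KO cells, with 9 of 10 above 0, and 0.38 in Arp8 KO cells, with 10 of 10 above 0. On the array labelled overexpression it was 0.16, with 8 of 10 above 0. Among all genes 53.8%, 54.2% and 54.9% were above 0 in these comparisons, which all share the wild-type array. In Arp8 KO cells minus the array labelled overexpression the regulators were divided. Their median there was 0.24, with 6 above and 4 below 0, against 50.03% of all genes above 0. Over 13 settings of the processing the median of the regulators stayed between 0.28 and 0.48 in Arp5 KO cells and between 0.28 and 0.41 in Arp8 KO cells. The count of 10 above 0 in Arp8 KO cells is less firm. *ATF5*, *ATF4* and *CEBPG* lay there at 0.00, 0.06 and 0.08, of the size of the spot error or smaller. With quantile normalization 9 were above and 1 below 0. *ATF4* mRNA itself differed little. Its brighter probe gave 170202 units in wild-type cells, 191290 on the Arp5 KO array, 177999 on the Arp8 KO array and 174370 on the array labelled overexpression. The log2 differences of *ATF4* to wild-type cells were 0.22, 0.06 and 0.11 in that order. For the brighter probe alone they were 0.17, 0.06 and 0.03, and for the dimmer probe 0.27, 0.06 and 0.18. Since ATF4 is governed largely by translation, its mRNA does not give the amount of protein, which was not measured here.

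Several genes under the control of ATF4 stood farther from wild-type cells than *ATF4* did. *PPP1R15A* encodes GADD34, which brings a phosphatase to eIF2 and so lets protein synthesis resume. Its probe gave 675 units in wild-type cells, 1525 on the Arp5 KO array, 825 on the Arp8 KO array and 1350 on the array labelled overexpression. The Arp5 KO array and the array labelled overexpression were both high, with log2 differences of 1.18 and 1.001, while Arp8 KO cells were at 0.29. The value of 1.001 sits at the 2-fold threshold and missed it under 3 of the other settings. *DDIT3* encodes CHOP, a transcription factor linked to cell death under lasting ER stress. Its signals were 396 units in wild-type cells, 681 on the Arp5 KO array, 521 on the Arp8 KO array and 456 on the array labelled overexpression. The order of the arrays differed from that of *PPP1R15A*, with log2 differences of 0.78, 0.40 and 0.20. *CHAC1*, which encodes an enzyme that breaks down glutathione, followed the order of *DDIT3*, at 3129, 4772, 4366 and 3500 units. Its log2 differences were 0.61, 0.48 and 0.16.

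*CEBPB* encodes a C/EBP factor that can pair with ATF4 on DNA. Its dimmer probe gave 129 units in wild-type cells, 226 on the Arp5 KO array, 215 on the Arp8 KO array and 151 on the array labelled overexpression. The brighter probe is spotted 10 times on each array and gave 7628, 10161, 9008 and 8114 units. Both probes were higher on the KO arrays than on the other two, but their log2 differences in Arp5 KO cells were 0.81 and 0.41, and for the repeated probe the spread of the spots was an SD of 0.04. *TRIB3*, a pseudokinase that restrains ATF4, was highest in Arp8 KO cells. Its brighter probe gave 30336 units in wild-type cells, 39131 on the Arp5 KO array, 45214 on the Arp8 KO array and 31278 on the array labelled overexpression. The log2 differences of *TRIB3* were 0.34 with Arp5 KO, 0.52 with Arp8 KO and -0.02 on the array labelled overexpression, where the sign turned under some settings. *NUPR1*, a small nuclear protein of the stress response, gave 12.1, 18.8, 16.8 and 13.8 units, and its differences of 0.64, 0.47 and 0.20 are of the size of the spot error at such dim signals. *DDIT4*, an inhibitor of mTORC1 signaling, was 0.36 above wild-type in Arp8 KO cells and lay at -0.34 on the array labelled overexpression. The remaining regulators, *ATF5* and *CEBPG*, which encode partners of ATF4 in the same factor family, ranged from -0.03 to 0.34 in the comparisons with wild-type cells.

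**Figure D2:**
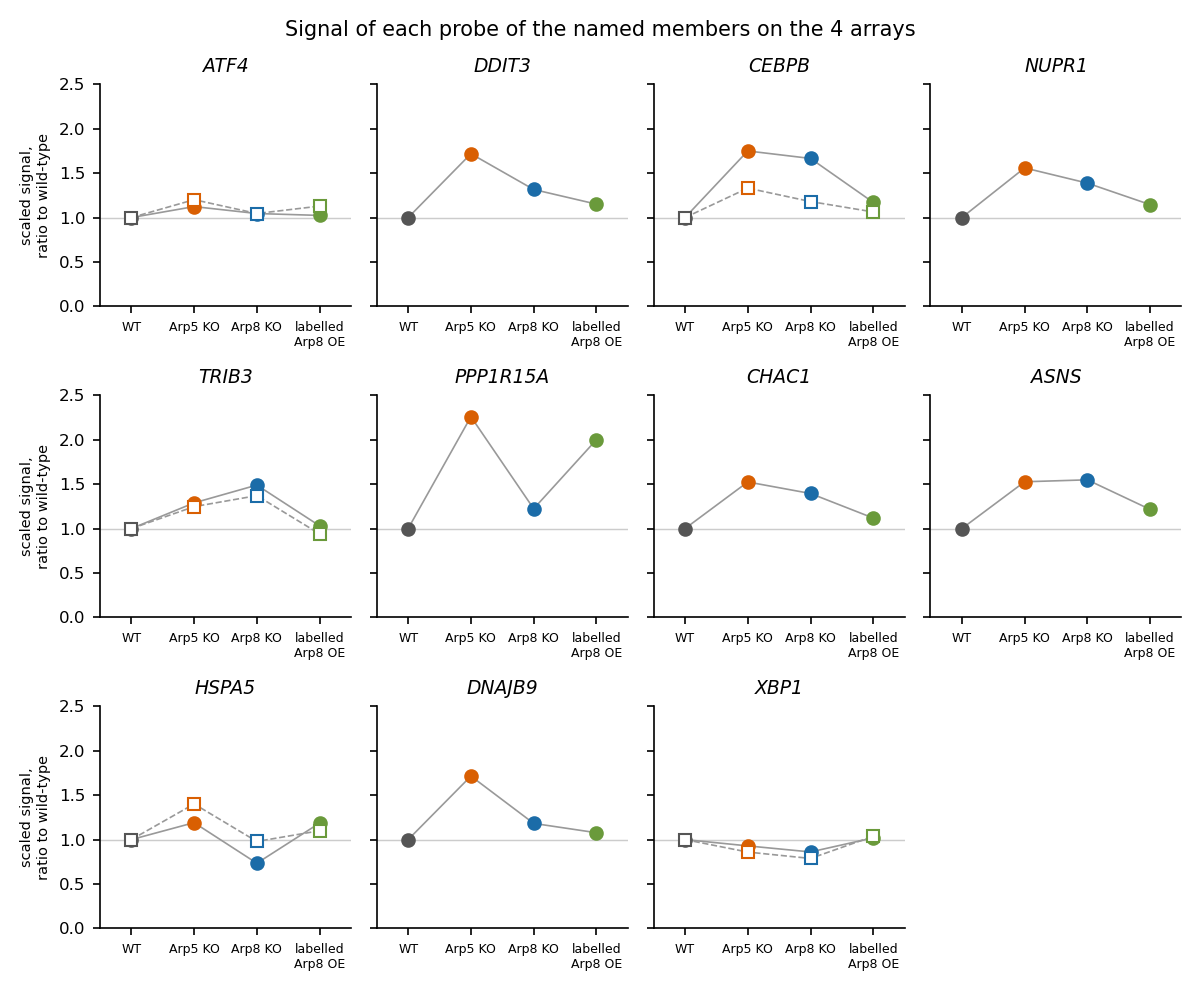
Scaled signal of each probe on the 4 arrays divided by its signal on the wild-type array (y axis, starting at 0), 1 panel per gene; open squares and dashed lines are a further probe of the same gene. *PPP1R15A* reached 2.26 times the wild-type signal in Arp5 KO cells and 2.002 times on the array labelled overexpression, while *XBP1* stayed between 0.79 and 1.04 times on all arrays.

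ATF4 acts on DNA through the C/EBP-ATF response element (CARE), searched here as TGATGNAA on both strands in RefSeq promoter windows of GRCh38.p14 that run from 250 bases before to 50 bases after the transcription start. The windows of 31 of the 34 members were in the table. The motif was found in 4.46% of 27305 genes of the table and in 6 of the 31 members, namely *CEBPG*, *CHAC1*, *ASNS*, *SLC3A2*, *SLC7A1* and *HERPUD1*. The stretches around 2 of the matches are shown because these genes were among the 7 above 1.5-fold in Arp5 KO cells. They lie upstream of the start, at chr15:40953242-40953289 on the plus strand for *CHAC1* and at chr7:97872449-97872496 on the minus strand for *ASNS*, and capitals mark the match.
CHAC1: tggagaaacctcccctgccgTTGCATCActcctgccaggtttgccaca
ASNS: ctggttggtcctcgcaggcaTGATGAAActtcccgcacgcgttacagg
The *CHAC1* match begins 209 bases before the start and reads on the opposite strand, and the *ASNS* match begins 68 bases before it. *CEBPG* also holds the motif, 42 bases before its start, and had a log2 difference of -0.03 in Arp5 KO cells. Values were split by motif only after seeing the data. Over the 5 measured members with the motif the median difference was 0.38 in Arp5 KO cells and 0.16 in the Arp8 KO line. Over 284 other measured genes with the motif it was 0.00 in Arp5 KO cells, with 142 above 0 and 142 below, and -0.01 in Arp8 KO cells. A match describes the letters only, and binding was not measured.

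The enzymes of amino acid and one-carbon metabolism, 6 genes, were divided. *ASNS*, which encodes asparagine synthetase, gave 28179 units in wild-type cells, 43046 on the Arp5 KO array, 43664 on the Arp8 KO array and 34270 on the array labelled overexpression. It was higher in both KO cell lines than in wild-type cells, with log2 differences of 0.61 and 0.63, and lay at 0.28 on the array labelled overexpression. The enzymes of serine synthesis did not follow it. *PSAT1*, the aminotransferase of that pathway, gave 28122 units in wild-type cells, 21642 on the Arp5 KO array, 24198 on the Arp8 KO array and 24976 on the array labelled overexpression. It was lower on all of these arrays than in wild-type cells, with a log2 difference of -0.38 in Arp5 KO cells. *PHGDH*, the dehydrogenase that opens the pathway, was at 0.00 in Arp5 KO cells and -0.15 in the Arp8 KO line. *PSPH*, the phosphatase that ends it, was at -0.09 and 0.18. The mitochondrial folate enzymes *SHMT2* and *MTHFD2* were between 0.02 and 0.17 in the KO cell lines. The median of the 6 enzymes was 0.01 in Arp5 KO cells and 0.10 in the Arp8 KO line, so *ASNS* stood apart from the other enzymes of its group.

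Of the amino acid transporters, *SLC7A5*, the large neutral amino acid transporter, depended on the probe. Its dimmer probe gave 632 units in wild-type cells, 995 on the Arp5 KO array, 602 on the Arp8 KO array and 381 on the array labelled overexpression, while the brighter one gave 15633, 15744, 15271 and 14043 units. Their log2 differences in Arp5 KO cells were 0.65 and 0.01, which is the largest disagreement between probes of a member in that comparison, and the gene's median of 0.33 is therefore not a firm value. *SLC7A1*, which carries cationic amino acids, was at 0.14 and 0.16 in the KO cell lines, but its probes had opposite signs, at 0.36 and -0.09 with Arp5 KO, while the Arp8 KO line had 0.32 and -0.01.

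The ER chaperones and folding factors, 11 genes, showed the clearest difference between Arp8 KO cells and the array labelled overexpression. Of the 11 genes 10 were lower in Arp8 KO cells, with a median log2 difference of -0.47, and this count was 10 under all 13 settings. Among all genes 50.03% were above 0 in this comparison and the median was 0.00. Relative to wild-type cells the chaperones had a median of -0.24 in Arp8 KO cells, with 8 of 11 below 0, and of 0.22 on the array labelled overexpression, with 10 of 11 above 0. The difference between these arrays thus lay on both sides of the wild-type array. B-lineage markers also differed between the Arp8 arrays, in both directions. *VPREB1*, another part of the pre-B-cell receptor, was at -0.75 in Arp8 KO cells minus the array labelled overexpression, with *CD79A* at -0.63 and *CD79B* at -0.37, whereas *DNTT*, an enzyme of early B-cell development, was at 0.60. These markers were named after their values were seen, and their part in the chaperone difference was not tested. In Arp5 KO cells the median was -0.03, with 4 above and 7 below 0, and its sign turned under 1 of the settings.

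*HSPA5* encodes BiP, the main Hsp70 chaperone of the ER. Its brighter probe gave 13619 units in wild-type cells, 16218 on the Arp5 KO array, 9989 on the Arp8 KO array and 16156 on the array labelled overexpression. The other probe gave 3273, 4588, 3204 and 3599 units. The brighter probe was lowest in Arp8 KO cells and the other was highest in Arp5 KO cells, while the remaining gaps at these ends were within the spot error. The gene's log2 differences to wild-type cells were 0.37, -0.24 and 0.19. *HSP90B1*, the Hsp90 of the ER, gave 102770 units in wild-type cells, 96612 on the Arp5 KO array, 90273 on the Arp8 KO array and 115448 on the array labelled overexpression with its brighter probe. Unlike *HSPA5* it was not higher in Arp5 KO cells, at -0.10. *CALR*, a lectin chaperone that holds calcium, was at -0.22 with Arp5 KO, -0.29 with Arp8 KO and at 0.22 on the array labelled overexpression. *HYOU1*, a nucleotide exchange factor for BiP, gave 2366, 2054, 1850 and 2840 units and was at -0.62 in Arp8 KO cells compared with the array labelled overexpression. *PDIA4*, a disulfide isomerase, gave 15505 units in wild-type cells, 12502 on the Arp5 KO array, 10693 on the Arp8 KO array and 15483 on the array labelled overexpression. It had the lowest value of the members in Arp8 KO minus wild-type cells, at -0.54.

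The largest differences to wild-type cells in this group were those of *DNAJB9* and *CRELD2*. *DNAJB9* encodes ERdj4, a co-chaperone of BiP that is induced through XBP1. Its signals were 3072 units in wild-type cells, 5271 on the Arp5 KO array, 3633 on the Arp8 KO array and 3310 on the array labelled overexpression. The Arp5 KO array alone stood well above the others, with a log2 difference of 0.78, against 0.24 in Arp8 KO cells. It was also the only chaperone with a value above 0 in Arp8 KO cells compared with the array labelled overexpression, at 0.13. *CRELD2*, an ER protein that assists disulfide exchange, gave 11819, 15600, 13495 and 21093 units. It was the highest on the array labelled overexpression, with a log2 difference of 0.84 to wild-type cells. *MANF*, a small ER-stress protein, *SDF2L1*, a partner of BiP, *PDIA6*, a disulfide isomerase, and *DNAJC3*, another co-chaperone, had values of -0.47 to -0.32 in Arp8 KO cells compared with the array labelled overexpression. In Arp5 KO minus wild-type cells these 4 genes ranged from -0.09 to 0.21.

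*XBP1* encodes the transcription factor whose mRNA is spliced by IRE1 when unfolded protein collects. Its brighter probe gave 145259 units in wild-type cells, 134946 on the Arp5 KO array, 125038 on the Arp8 KO array and 148054 on the array labelled overexpression. The other probe, designed on the accession of the spliced form, gave 12938, 11119, 10188 and 13420 units. Both probes were lowest in Arp8 KO cells, and the gene's log2 differences to wild-type cells were -0.16, -0.28 and 0.04, the last of which turned its sign under some settings. The log2 difference of the second probe minus that of the first was -0.11 in Arp5 KO cells and -0.13 in the Arp8 KO line, which is near the span between probes of other members. Whether these probes separate the spliced from the unspliced form was not tested. Of the genes that clear misfolded protein from the ER, *HERPUD1*, which helps to gather the ubiquitin ligase complex, gave 30486 units in wild-type cells, 39797 on the Arp5 KO array, 30964 on the Arp8 KO array and 33636 on the array labelled overexpression. Arp5 KO cells were highest, at a log2 difference of 0.38. *EDEM1*, which marks misfolded glycoproteins for removal, was at -0.33 in Arp8 KO cells, and *SEL1L*, a partner of that ligase, was at -0.18. All 4 genes of the XBP1 and degradation group were lower in Arp8 KO cells than on the array labelled overexpression, with a median of -0.24.

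Some members hold an ER stress response element in the promoter. The elements were not used to choose the members, which were named from known roles in the pathway, although with earlier results of these data known. The element ERSE was searched as CCAAT, 9 bases of any kind and CCACG, ERSE-II as ATTGG, 1 base of any kind and CCACG, and the core of the unfolded protein response element (UPRE) as TGACGTG, on both strands of the same windows. ERSE was found in 0.0916% of 27305 genes, ERSE-II in 0.0696% and the UPRE core in 2.4%. Among the 31 members with a window, 6 had an ERSE, namely *HSPA5*, *HSP90B1*, *PDIA6*, *CRELD2*, *CALR* and *XBP1*, and 3 had an ERSE-II, namely *SDF2L1*, *HYOU1* and *HERPUD1*. *HYOU1* was the 1 member with the UPRE core. The sequences below, from the RefSeq windows of GRCh38.p14, show the match in capitals for 3 of the genes whose values differ most between Arp8 KO cells and the array labelled overexpression and for *HSPA5* and *XBP1*. All lie upstream of the start, at chr9:125241371-125241429 on the minus strand for *HSPA5*, chr22:49918534-49918592 on the plus strand for *CRELD2*, chr19:12938364-12938422 on the plus strand for *CALR*, chr22:28800583-28800641 on the minus strand for *XBP1* and chr11:119057360-119057410 on the minus strand for *HYOU1*.
HSPA5: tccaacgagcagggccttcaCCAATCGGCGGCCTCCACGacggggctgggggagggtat
CRELD2: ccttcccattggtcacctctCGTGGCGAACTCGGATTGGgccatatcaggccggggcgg
CALR: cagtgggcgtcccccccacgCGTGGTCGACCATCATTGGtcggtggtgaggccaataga
XBP1: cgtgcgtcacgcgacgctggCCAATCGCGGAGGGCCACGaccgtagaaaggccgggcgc
HYOU1: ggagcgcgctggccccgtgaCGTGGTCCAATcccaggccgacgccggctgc
The matches begin 66 bases before the start in *HSPA5*, 80 in *CRELD2*, 225 in *CALR*, 52 in *XBP1* and 185 in *HYOU1*, and those of *CRELD2*, *CALR* and *HYOU1* read on the opposite strand. In *HYOU1* the UPRE core begins 188 bases before the start and overlaps the ERSE-II. A further ERSE-II of *HYOU1* begins 79 bases before the start.

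**Figure D3:**
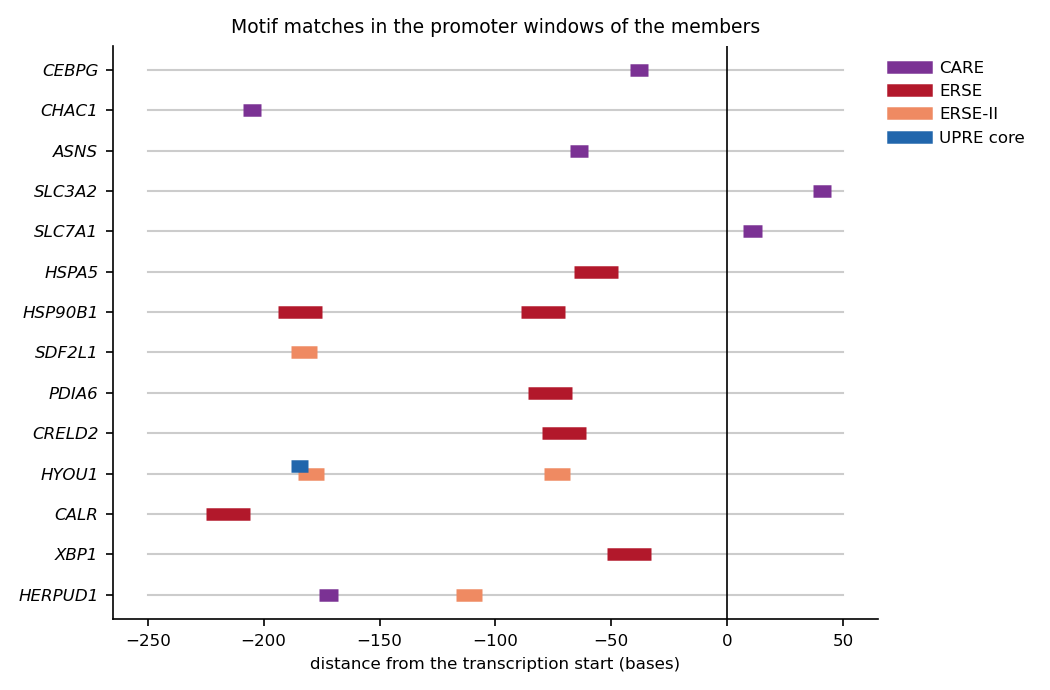
Positions of the 4 motifs (colored bars, drawn to scale) relative to the transcription start (x axis, in bases; 0 is the start) in the promoter windows of the 14 members with at least 1 match. ERSE and ERSE-II lie upstream of the start in 9 genes, from 225 to 52 bases before it, and *HYOU1* holds overlapping matches to ERSE-II and the UPRE core.

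The members with these elements were on 1 side in the comparison of the Arp8 arrays. All 9 members with an ERSE or ERSE-II were lower in Arp8 KO cells than on the array labelled overexpression. They ran from -0.64 for *CRELD2* to -0.12 for *HERPUD1*, with a median of -0.43, and 9 were lower under each of the 13 settings. Among all genes 50.03% were above 0 in this comparison. The 9 all belong to the chaperone group or the XBP1 and degradation group, whose values were given above. Their count is therefore not a separate result and does not tie the difference to the element. Relative to wild-type cells 6 of the 9 were below 0 in Arp8 KO cells and 9 of 9 were above 0 on the array labelled overexpression. Over the settings these counts were 6 to 8 and 8 to 9. Among all genes 54.2% and 54.9% were above 0 in these comparisons. In Arp5 KO cells they were divided, with 4 above and 5 below 0. This grouping was chosen after seeing the data, as was a comparison with genes outside the list. Of 18 other measured genes with an ERSE or ERSE-II, 14 were lower in Arp8 KO cells than on the array labelled overexpression, with a median of -0.11 and between 13 and 16 lower over the settings. Most of these other genes are not known as ER chaperones. They ran from -0.96 for *SHCBP1* to 0.67 for *CNKSR1*. Examples that act in the ER, picked without a fixed list, were not alike. *CANX* was at -0.29, *ERO1B* at -0.33, *ALG12* at -0.12, *FICD* at -0.04 and *SERP1* at 0.01. Of the 4 chaperones without either element, *PDIA4*, *MANF* and *DNAJC3* were also lower, at -0.53, -0.42 and -0.47, and only *DNAJB9* was not. Neither the active forms of ATF6 and XBP1 nor binding to these promoters was measured.

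The rest of the pathway holds 76 further genes, of which 71 were measured on all arrays. *CREB3L2* and *CARS1* had no matched probe, *ALDH1L2* and *FGF21* were not well above background on most arrays, and the *GDF15* spot on the Arp5 KO array was marked as an outlier. *GDF15*, a secreted stress cytokine, gave 59.9 units in wild-type and 113 in Arp8 KO cells, with 71.8 on the array labelled overexpression. None of the 71 genes was past 2-fold in either KO cell line. At 1.5-fold 3 were above and 3 below wild-type cells in Arp5 KO cells, against 3.92% and 3.31% of all genes, and 2 above and 2 below in Arp8 KO cells, against 5.1% and 5%. As shares of the 71 these are 4.23% in each direction for Arp5 KO and 2.82% for Arp8 KO. The median over the 71 genes was -0.07 in Arp5 KO cells and -0.06 in the Arp8 KO line. The kinases that phosphorylate eIF2, the subunits of eIF2 and its exchange factor, and *PPP1R15B*, a phosphatase partner, together 13 genes, had medians of -0.13 and -0.07, and 0 of them was past 1.5-fold. The 11 measured aminoacyl-tRNA synthetases, which load amino acids onto tRNA, had medians of 0.04 and 0.06, although 6 of the 9 with a promoter window hold a CARE.

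Further ATF4 targets, 17 measured genes, did not share the level of the regulators, with medians of -0.08 in Arp5 KO cells and -0.02 in the Arp8 KO line. *SLC7A11*, the cystine transporter, was the lowest of them in Arp5 KO cells. Its probes well above background gave 138 and 70.1 units in wild-type, 76.5 and 32.8 in Arp5 KO, and 121 and 66.5 in Arp8 KO cells, with 118 and 49.2 on the array labelled overexpression. The log2 difference in Arp5 KO cells was -0.97, opposite to that of *ASNS* and *CHAC1*. It rests on dim probes and ran from -1.10 to -0.45 over the settings, the latter with normexp background, whose offset draws dim differences toward 0. *PCK2*, a mitochondrial enzyme that makes phosphoenolpyruvate, gave 16208 units in wild-type cells, 26016 on the Arp5 KO array, 18805 on the Arp8 KO array and 16853 on the array labelled overexpression with its brighter probe, and the gene's difference in Arp5 KO cells was 0.77. *SESN2*, which restrains mTORC1, was instead highest in Arp8 KO cells. It gave 964, 1243, 1720 and 1229 units, with log2 differences of 0.37, 0.84 and 0.35. *ATF3* and *SLC38A2* were also past 1.5-fold in Arp5 KO cells, at 0.62 and -0.61, close to the threshold. They were at 0.49 and -0.27 in Arp8 KO cells, and at -0.07 and -0.40 on the array labelled overexpression. ATF4 targets thus differed from each other in both size and direction. In Arp8 KO cells compared with the array labelled overexpression, 15 of the 17 were above 0, with a median of 0.23, which is the opposite side from the chaperones. This lay on the array labelled overexpression, where 12 of the 17 were below wild-type cells with a median of -0.25.

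The ER stress sensors, of which 6 of 7 were measured, had medians of 0.09 in Arp5 KO cells and 0.26 in the Arp8 KO line. *ERN1*, which encodes IRE1, was the highest at 0.90, but its probe gave only 8.87 units in wild-type cells, 16.6 on the Arp5 KO array, 14.6 on the Arp8 KO array and 14.3 on the array labelled overexpression. At such signals the spot error is large, and the probe has no repeated spots to check the value. Under normexp background, whose offset draws dim differences toward 0, *ERN1* was at 0.15 with Arp5 KO and at 0.05 with Arp8 KO, past 1.5-fold in neither. Further genes of ER folding and degradation, 24 in number, shared the side of the chaperones only in part. In Arp8 KO cells 20 of 24 were below wild-type cells, with a median of -0.20, and 20 of 24 were below the array labelled overexpression, with a median of -0.12. On that array minus wild-type cells 11 were above and 13 below 0, with a median of -0.02, unlike the chaperones. *SEC61B*, a subunit of the channel through which proteins enter the ER, was low on both Arp8 arrays. Its brighter probe gave 60484 units in wild-type cells, 65693 on the Arp5 KO array, 34192 on the Arp8 KO array and 37602 on the array labelled overexpression, and the log2 differences of the gene were 0.11, -0.83 and -0.71. *DERL3*, which helps to pull misfolded protein out of the ER, differed between them instead. Its brighter probe gave 1706, 2305, 1238 and 2045 units, and the gene was at -0.72 in Arp8 KO minus wild-type cells and at 0.02 on the array labelled overexpression, a value whose sign turned under some settings. Its probes disagreed, at -0.46 and -0.98 in Arp8 KO minus wild-type cells and at 0.26 and -0.21 on the array labelled overexpression, so that with the brightest probe alone *DERL3* was not past 1.5-fold in either of these. Between the Arp8 arrays it was at -0.74, and at -0.76 to -0.64 over the settings.

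**Figure D4:**
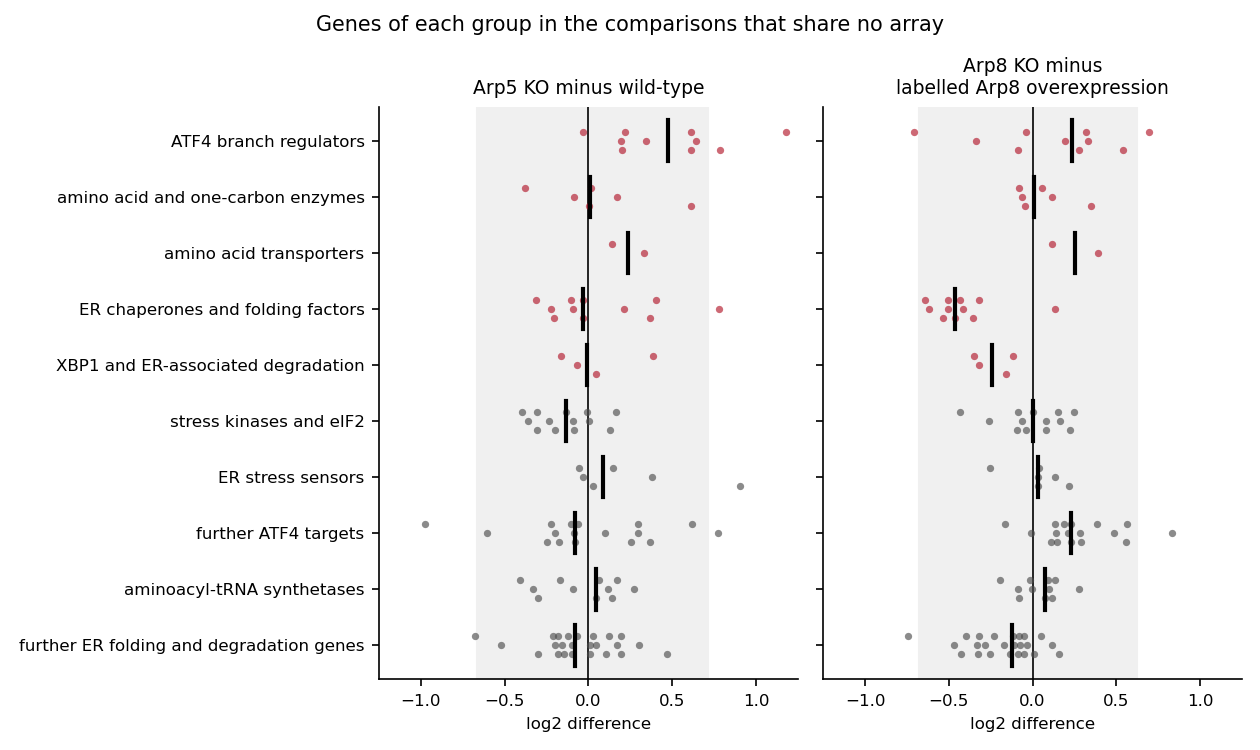
Log2 difference (x axis) of every measured gene (points) and the median of each group (black bars) in Arp5 KO minus wild-type cells and in Arp8 KO cells minus the array labelled overexpression, which have no array in common; red groups are the 33 members, gray groups the wider list, and the shaded band holds the middle 95% of all 12969 genes. ATF4 branch regulators have medians of 0.48 and 0.24, with 9 and 6 of the 10 genes above 0. ER chaperones have medians of -0.03 and -0.47, with 4 and 1 of the 11 genes above 0.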

How the data were processed

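The authors deposited the output of Agilent Feature Extraction 10.5.1.1 for each array, which gives every spot a processed signal, that is, a linear intensity after subtraction of the background, with no scaling between arrays. The deposited table of intensity values was found to hold the same signals multiplied by a factor for each array, and how that factor was set is not given in the sources used here. The deposited files also hold other columns, with marks of the software for outliers and for signals well above background. Each array had 43376 spots other than controls, of which 30394 to 31420 were well above background, and 0 were saturated. The arrays share a slide and a scan.

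The log2 intensity minus the 75th percentile of its array was used. Outlier spots were left out, spots of a probe were averaged, and a gene was given the median difference over its probes well above background on all 4 arrays. No member had a bound only. Probes were named through their accessions and the gene table of GRCh38.p14, which matched 26222 of 41000 probes (64.0%), and since the scanner output names hg18, coordinates come from the RefSeq promoter table alone. The members and lists were chosen with earlier results of these data known. Genes named with their values on every array are members past 1.5-fold in either KO minus wild-type comparison, *ATF4*, *DDIT3*, *ASNS*, *HSPA5*, *XBP1*, *TRIB3* and *DNAJB9*, and, as none of the wider list was past 2-fold, its 3 largest differences in each KO comparison. Other genes were given values after these had been seen. Alternatives were other scalings, the authors' table, normexp background with an offset of 50, other filters, other ways to combine probes, outlier spots kept and a 1.5-fold threshold. Normexp was run on median signals, since the files used hold no mean signal. The code that makes the calls was checked on simulated data, which covers no variation between cultures. Python 3.11.15, numpy 2.4.6, pandas 2.3.3, matplotlib 3.10.9, R 4.3.3 and limma 3.58.1 were used.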

Additional observations from a re-analysis of the deposited data

How the results depend on the processing

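No paired analysis was possible because there was 1 array for every genotype. The count of members past 2-fold on the array labelled overexpression was 1 and became 0 with quantile normalization, with the 75th percentile over probes well above background and with the authors' table, since *PPP1R15A* lies at the threshold. With a threshold of 1.5-fold the counts were 7 for Arp5 KO, 1 for Arp8 KO and 2 for the array labelled overexpression, each against wild-type cells, and 4 for Arp8 KO against that array. Of these, the count for Arp5 KO fell to 4 with array median scaling, quantile normalization, the authors' table or normexp background and to 6 with the brightest probe or with probes at 50 units or more, and the last count was 3 with normexp background and 5 with the brightest probe. The median of the members in Arp5 KO cells was 0.0184 with the brightest probe of each gene, against 0.17, and the cause was not tested. *ACTR5* in Arp5 KO cells was at -3.94 with normexp background and at -4.93 with quantile normalization. With the brightest probe *ACTR8* was at -0.23 on the array labelled overexpression, against -0.47, and at 0.0777 in Arp5 KO cells, against -0.02. The other 168 values of the counts past 2-fold, the medians of the members and the targeted genes stayed within 1.5 times the count or within 0.07 of the log2 value. Of the values of single genes and groups, 69 moved by more than that and 1315 did not, and none past 1.5-fold changed its sign. The restriction to genes brighter than 500 units was added after seeing the data and left the counts past 2-fold as they were and the medians of the members within 0.07, while the count past 1.5-fold in Arp5 KO cells went from 7 to 6. Signal over background limits *NUPR1* and *ERN1*, whose signals were under 50 units. It also limits *SLC7A11*, with a probe at 32.8 units on the Arp5 KO array and 49.2 on the array labelled overexpression.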
